A study of Homo sapiens with 3 samples.

Results

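The cytosolic ribosomal protein genes were examined as a housekeeping set in a map of BRG1 on chromatin. Members were the autosomal protein-coding genes whose symbol is RPL or RPS followed by a number with optional letters A, L, X or Y, together with RPLP0, RPLP1, RPLP2 and RPSA. This rule found 78 genes among the 19126 autosomal protein-coding genes of the RefSeq table. They comprised 47 genes of the large and 31 of the small ribosomal subunit, including 5 paralogs whose symbol ends in L. The data came from chromatin immunoprecipitation and sequencing (ChIP-seq) with an anti-BRG1 antibody in wild-type 12Z, an established epithelial cell line derived from human endometriosis. There were 2 BRG1 libraries and 1 input library of chromatin without immunoprecipitation. All libraries share the same cells and condition, and nothing in the labels says that the replicates came from separate cultures. No peak list of the input was used here, the lists give no read counts, so depth is unknown, and they cannot check the cell type by its markers. BRG1 was mapped in lists of 17399 peaks for replicate 1 and 10157 for replicate 2, and in an overlap list of 6343 peaks, called shared peaks here.

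BRG1, encoded by SMARCA4, is an ATPase of the SWI/SNF complexes, which slide and evict nucleosomes at promoters and enhancers. Ribosomal proteins are the protein subunits of the cytosolic ribosome. Most of their genes are short and transcribed in nearly every cell. They are known for a terminal oligopyrimidine (TOP) start, a C followed by a run of pyrimidines, through which mTOR signalling controls translation of their mRNAs. Because cells need most of them, they serve as a contrast for genes whose expression depends on the cell type. This does not hold for every paralog ending in L, and expression was not measured here.

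Promoter sequences are shown first, since the distances below are measured from these genes. RefSeq (GRCh38.p14) listed a promoter for 61 of the 78 members. The first base of the transcript and the 4 bases after it were a C and then 4 pyrimidines in 40 of these 61 promoters (65.6%), against 690 of 15101 autosomal coding genes with a listed promoter (4.57%). The 6 windows below show 10 bases before the start and 12 from it, with the start base and the next 4 in capitals. RPS14, RPS12, RPSA and RPLP2 hold the pattern, and RPL3 and RPS26 do not at the listed start.
RPS14: ccctcccactCTCTCtttccgg
RPS12: cggatgaggcCTCTTtccctgc
RPSA: tgccgcctgtCTTTTccgtgct
RPLP2: tcggcgccttCCTTTtcctccc
RPL3: gccgaccggcCTCTAccggcgg
RPS26: acataacctcGATTTtcttccg

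Within the 300 bases of each listed promoter, motif matches on both strands were a description and not binding sites. CCGGAAG, the core bound by ETS factors, occurred in 21 of 61 member promoters (34.4%), against 14.4% of all 15101. The AP-1 motif TGANTCA occurred in 2 of 61 (3.28%; RPL24 and RPL6), against 5.70% of all. The TEAD motif GGAATG occurred in 3 of 61 (4.92%; RPL38, RPL6 and RPL7A), against 11.7% of all. TATAAA was matched in 6 of 61 (9.84%), against 9.71% of all. The YY1 motif was matched in RPL35A only (1.64%), against 0.940% of all, and the NRF1 motif in RPL10A only (1.64%), against 1.77% of all. In the 61 promoters, 0 pairs of matches to different motifs shared a base.

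Promoters of 4 members with a peak at a gene end or in their domain are printed from 150 bases before the start to 20 bases from it. CCGGAAG or its reverse complement is in capitals. They are RPS14 at chr5:150449720-150449889 (minus strand), RPS26 at chr12:56041768-56041937 (plus), RPS12 at chr6:132814419-132814588 (plus) and RPL3 at chr22:39319604-39319773 (minus), all on GRCh38.p14. The RPS14 promoter holds 2 matches, RPL3 holds 1, and RPS26 and RPS12 hold 0.
RPS14: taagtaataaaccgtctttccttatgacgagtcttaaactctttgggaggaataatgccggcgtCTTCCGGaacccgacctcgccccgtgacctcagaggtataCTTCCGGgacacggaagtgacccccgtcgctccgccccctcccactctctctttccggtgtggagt
RPS26: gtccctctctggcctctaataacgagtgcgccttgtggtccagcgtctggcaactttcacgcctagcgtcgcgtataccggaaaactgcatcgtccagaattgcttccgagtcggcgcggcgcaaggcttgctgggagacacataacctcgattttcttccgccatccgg
RPS12: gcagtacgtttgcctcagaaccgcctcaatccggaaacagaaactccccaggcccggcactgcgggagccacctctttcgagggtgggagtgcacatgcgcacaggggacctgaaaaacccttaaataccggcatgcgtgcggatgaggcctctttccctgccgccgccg
RPL3: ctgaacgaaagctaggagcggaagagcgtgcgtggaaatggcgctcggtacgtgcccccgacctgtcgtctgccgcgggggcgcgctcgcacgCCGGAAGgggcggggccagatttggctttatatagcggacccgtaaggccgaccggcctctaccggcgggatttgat

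No shared peak lay at the ends of a ribosomal protein gene. A gene end was the interval within 3 kb of either end of the gene, and a peak counted there if any part of it fell inside. Of the 78 members, 0 had a shared peak at a gene end, which allows a share of up to 3.85%, against 2.34% of all autosomal coding genes (448 of 19126). The replicate 2 list also gave 0 of 78, against 3.13% of all. The replicate 1 list gave 2 of 78 (2.56%; exact 95% interval 0.312 to 8.96%), against 7.13% of all. For shared and replicate 2 peaks the share of all genes lies below the limit that 0 of 78 allows, so a lower share was not detectable with this number of genes. For replicate 1 the share of all genes lies inside the interval of the members. The intervals treat genes as independent and cover counting error only.

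The replicate 1 peaks at gene ends belonged to RPS12 and RPL23A, proteins of the small and the large subunit. The RPS12 peak spanned 132812839 to 132813397 on chromosome 6 (GRCh38.p12, 559 bp) and ended 1.17 kb upstream of the start. Its fold over background, the authors' ratio of signal to background, was 3.54, at the 50.2 percentile of its list, and its −log10 q was 1.68. The nearest replicate 2 peak lay 129 kb from it. The RPL23A peak spanned 28717093 to 28717785 on chromosome 17, with a fold of 3.37 and a −log10 q of 1.86, and ended 2.20 kb from the nearer end of the gene. Its midpoint lay in the body of the neighbouring gene RAB34, so it did not count in the domain of RPL23A, and the nearest replicate 2 peak was 90.8 kb away. Both gene-end peaks were thus found in 1 library only. Just outside the 3 kb limit in replicate 1 were RPL3, with a peak 3.84 kb from its 3′ end, and RPS29, with a peak 4.88 kb from its 5′ end.

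A gene's domain was its body plus every position within 100 kb for which it was the nearest coding gene, and peaks were placed in it by their midpoint. Shared peaks fell in the domains of 2 of 78 members, RPS14 and RPS26 (2.56%; exact 95% interval 0.312 to 8.96%), against 10.1% of all autosomal coding genes (1926 of 19126). Replicate 1 peaks fell in the domains of 5 members (6.41%; interval 2.11 to 14.3%), which were RPS14, RPS26, RPS12, RPS29 and RPL3, against 20.9% of all. Replicate 2 peaks fell in the domains of RPS14 and RPS26 (2.56%), against 11.9% of all. With RPL23A, 6 members thus had a peak, and the other 72 had no peak of any list in their domain or at their ends. Replicate peaks were also limited to a −log10 q of 5 or more, and shared peaks to those overlapping such a peak of both replicates. With this limit 0 members had a peak at a gene end in any list. The shares of all genes were 0.0157% for shared, 0.0993% for replicate 1 and 0.0261% for replicate 2 peaks. In domains, 0 had a shared peak that overlapped such a peak of both replicates, against 0.131% of all, 1 had a replicate 1 peak, against 0.737%, and 0 had a replicate 2 peak, against 0.392%. All 78 entered these counts, since no filter on low values applies to a peak list.

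These domains were short. Their median length was 15.1 kb, with a range of 1.69 kb for RPS27 to 195 kb for RPL10L, against 55.8 kb for all autosomal coding genes. The median gene was 4.91 kb long in members, against 24.5 kb in all, and members had a median of 5 other coding genes within 100 kb, against 4. Set against length, members held 1.19 shared peaks per Mb of domain (3 peaks in 2.51 Mb; exact Poisson 95% interval 0.246 to 3.49), against 1.63 in all genes. For replicate 1 the density was 3.18 per Mb in members (8 peaks, interval 1.37 to 6.27) and 4.84 in all genes. For replicate 2 it was 1.59 in members (4 peaks, interval 0.433 to 4.07) and 2.20 in all genes. The density of all genes lay inside the interval of the members in each list, whereas the share of genes with a peak did not. Domains that overlap are counted once for each gene. The Poisson intervals treat peaks as independent. Yet 2 of the 3 shared and 3 of the 4 replicate 2 peaks lay close together upstream of RPS14, so the intervals may be too narrow.

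Split by domain length, 44 of the 78 members had domains of up to 20 kb, and 0 of these held a peak of any list. Of all autosomal genes with domains of up to 10 kb, 0.793% held a shared peak, and 1.34% of those over 10 and up to 20 kb. For replicate 1 these shares were 2.01% and 4.07%, and for replicate 2 they were 0.899% and 1.71%. A relation of domain length to the counts of members was not tested. RPS14 and RPS26 were 2 of the 17 members with domains over 20 and up to 50 kb (11.8%), against 3.75% of all genes in that class. Of the 17 members with domains over 50 kb, 0 held a shared peak, against 9.31% of all genes with domains up to 100 kb and 21.0% of those with longer ones. In replicate 1, 1 of the 8 members with domains over 50 and up to 100 kb (RPL3) and 2 of the 9 above that (RPS12 and RPS29) held a peak, against 20.6% and 40.9% of all genes.

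RPS14 had the most peaks of any member. The protein is a small-subunit component, and loss of 1 copy of its gene is known from the myelodysplastic syndrome with a deletion on the long arm of chromosome 5. Its shared peaks spanned 150469374 to 150470612 (fold 3.53, −log10 q 4.22) and 150472398 to 150474505 (fold 3.19, −log10 q 3.08) on chromosome 5. Their midpoints lay 20.3 and 23.7 kb upstream of the gene, in the stretch between RPS14 and NDST1, whose body was 27.8 and 24.3 kb from them. In replicate 1 the first had a fold of 3.93 and the second 3.74, with −log10 q of 2.95 and 2.59. In replicate 2 the overlapping peaks had folds of 3.77 and 3.81, with −log10 q of 2.22 and 2.26. Another replicate 2 peak of 125 bp (fold 3.53, −log10 q 1.69) lay between them, 0.459 kb from the nearest replicate 1 peak. RPS14 was the only member with peaks of both replicates that overlapped each other in its domain. None of these peaks reached a −log10 q of 5.

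RPS26, another small-subunit gene, known for mutations in Diamond-Blackfan anaemia, had 1 shared peak at 56059928 to 56060568 on chromosome 12 (641 bp, fold 3.28, −log10 q 2.61). Its midpoint lay 15.6 kb downstream of the gene and 19.9 kb from ERBB3, a receptor tyrosine kinase gene. The replicate 2 peak under it had a fold of 4.73, at the 96.6 percentile of its list, and a −log10 q of 3.65. The replicate 1 peak under it had a fold of 3.34, at the 24.9 percentile, and a −log10 q of 1.38. These replicate peaks did not overlap each other but lay 0.047 kb apart, so RPS26 counted as shared only through the overlap list. When shared peaks were instead replicate 1 peaks overlapped by a replicate 2 peak, 1 member (RPS14) had one in its domain, against 9.76% of all genes. A further replicate 1 peak (fold 3.36, −log10 q 1.39) lay 10.5 kb downstream of RPS26.

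RPL3 and RPS29 had peaks in replicate 1 alone. RPL3, which reaches close to the peptidyl transferase centre of the large subunit, had a peak of 140 bp at 39308901 to 39309040 on chromosome 22, with its midpoint 3.91 kb downstream of the gene. Its fold of 5.47 stood at the 99.7 percentile of replicate 1 and its −log10 q was 6.02. It was the only peak in a member's domain above a −log10 q of 5, and the nearest replicate 2 peak was 95.7 kb away. RPS29, of the small subunit, had a peak inside its annotated body of 27.7 kb at 49593400 to 49593834 on chromosome 14 (fold 3.41, −log10 q 1.53). A second lay 58.6 kb downstream (fold 3.99, −log10 q 2.49), and the nearest replicate 2 peak was over 1 Mb from either.

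**Figure D1:**
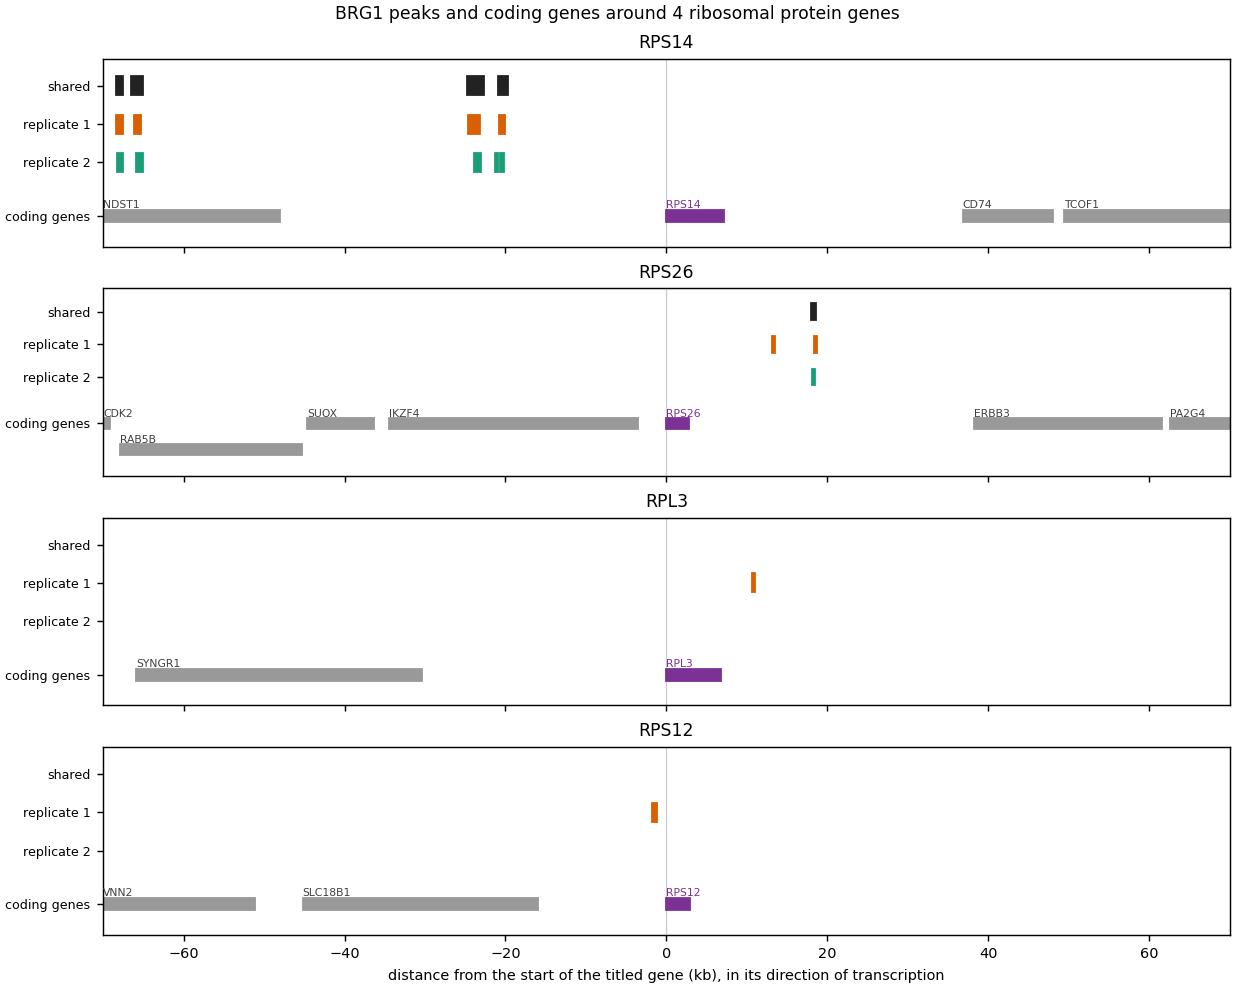
Peaks of the shared list and of replicates 1 and 2 (coloured blocks) and coding genes (bars; the titled gene in purple) around RPS14, RPS26, RPL3 and RPS12, with the distance in kb from the start of the titled gene in its direction of transcription on the x axis and the lists and genes on the y axis. Peaks of both replicates lie about 20 kb upstream of RPS14 and 18 kb downstream of the RPS26 start, while RPL3 and RPS12 have a replicate 1 peak only; blocks under 0.4 kb are drawn 0.4 kb wide.

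Over the domains of all members, 2 of 8 replicate 1 peaks (Wilson 95% interval 7.15 to 59.1%) overlapped a replicate 2 peak, against 33.2% in the domains of all autosomal coding genes. Of the 4 replicate 2 peaks, 2 overlapped a replicate 1 peak (interval 15.0 to 85.0%), against 74.1% in all. The median fold of peaks in member domains was 3.28 in the shared list, 3.64 in replicate 1 and 3.79 in replicate 2, against 3.33, 3.53 and 3.71 for all autosomal peaks. These are medians of 3, 8 and 4 peaks. Of the subunits, 2 of 31 small-subunit members and 0 of 47 large-subunit members had a shared peak by domain, against 10.1% of all autosomal genes. For replicate 1 the counts were 4 of 31 small-subunit and 1 of 47 large-subunit members, against 20.9% of all, and for replicate 2 they were 2 of 31 and 0 of 47, against 11.9%. The difference between the subunits was not tested. Median domain length was 21.2 kb in small-subunit and 12.1 kb in large-subunit members.

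Distance gave a value for every member. From the gene body to the nearest edge of a shared peak, the median was 239 kb in members, with a range of 11.8 kb (RPS27L) to 4823 kb (RPS15A), against 329 kb in all autosomal coding genes. For replicate 1 the median was 114 kb in members, against 112 kb, and for replicate 2 it was 197 kb, against 271 kb. Of the 78 members, 42 lay nearer to a shared peak than the median gene did, 39 to a replicate 1 peak and 45 to a replicate 2 peak, where an even split is 39. The order of the shared medians turned under stricter peak rules, to 769 kb in members, against 691 kb in all genes, with an overlap of 50% of both replicate peaks, and to 24857 kb, against 22208 kb, for shared peaks overlapping replicate peaks that both reach a −log10 q of 5. Of the 78, 0 had a shared peak within 10 kb of the body, against 8.44% of all autosomal genes, and 0 had a replicate 2 peak, against 10.3%. In replicate 1, 5 had one (6.41%; exact interval 2.11 to 14.3%), against 19.1%. These were RPS29, RPS12, RPL23A, RPL3 and RPL23, the last at 9.92 kb. Within 20 kb, 5 members had a shared peak (6.41%; interval 2.11 to 14.3%), against 10.3% of all. For replicate 1 there were 9 (11.5%; interval 5.41 to 20.8%), against 23.2%, and for replicate 2 there were 4 (5.13%; interval 1.41 to 12.6%), against 12.5%. The limit of 10 kb was not a planned setting and lies just below the shared distance of the nearest member, 11.8 kb.

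Genes with a peak within 10 kb were also counted by gene length, and a relation of length to the lower share of members within 10 kb was not tested. No member was longer than 30 kb, and 14.1% of the 8502 autosomal genes longer than that had a shared peak within 10 kb. Among genes of up to 5 kb the counts were 0 of 39 members, against 3.65% of all. Among those over 5 and up to 10 kb they were 0 of 28, against 2.61%, and over 10 and up to 30 kb 0 of 11, against 4.66%. These length classes were chosen after the values were seen. A shared peak lay within 30 kb of 10 members (12.8%; exact interval 6.32 to 22.3%), against 12.3% of all genes, and within 100 kb of 22 members (28.2%; interval 18.6 to 39.5%), against 24.1%. For replicate 1, 19 members had a peak within 30 kb (24.4%), against 26.9% of all, and 35 within 100 kb (44.9%), against 47.1%. For replicate 2 they were 10 (12.8%), against 14.8%, and 24 (30.8%), against 28%.

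**Figure D2:**
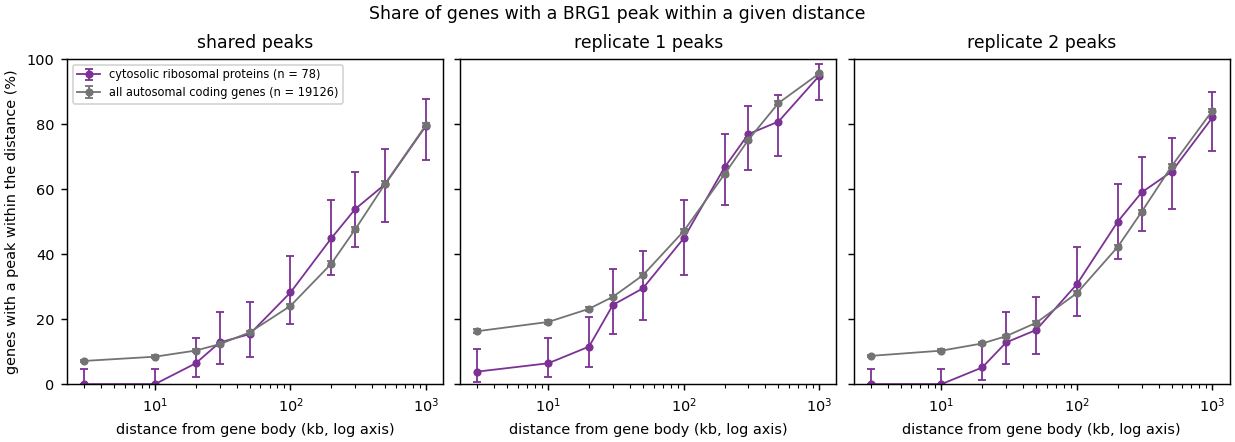
Share of genes (%, y axis) with a BRG1 peak within a given distance of the gene body (kb, log x axis) for the 78 cytosolic ribosomal protein genes (purple) and all 19126 autosomal coding genes (grey), by peak list; bars are exact 95% binomial intervals. Members start at 0 within 10 kb for shared and replicate 2 peaks. Within 20 kb they lie at 6.41% and 5.13%, where all genes stand at 10.3% and 12.5%. Within 30 kb they lie at 12.8%, where all genes stand at 12.3% for shared and 14.8% for replicate 2 peaks.

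Of the 22 members with a shared peak within 100 kb, the nearest one was closer to another coding gene in 20, the exceptions being RPS14 and RPS26 (90.9%), against 58.8% of the 4605 autosomal genes with a shared peak in that range. This is the domain count of 2 members seen from the side of the peaks, in genes with a median of 5 others within 100 kb. RPS27L, a paralog of RPS27 known as a p53 target, had a shared peak 11.8 kb from its body inside LACTB (chromosome 15, 63133599 to 63136437, fold 3.19). RPL10A had one at 14.4 kb inside TEAD3, the gene of a TEAD transcription factor (chromosome 6, 35485221 to 35486234, fold 2.90). The RPS21 peak, at 16.7 kb, lay 2.74 kb from LAMA5, a laminin chain gene (chromosome 20, 62369659 to 62370448, fold 2.93).

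RPLP0, RPLP1 and RPLP2 encode the stalk of the large subunit, which recruits translation factors. RPLP2 had a shared peak 22.2 kb away inside CD151, a tetraspanin gene, at 835033 to 835341 on chromosome 11. With a fold of 3.89, at the 88.9 percentile, and a −log10 q of 7.80 it had the highest −log10 q among the nearest shared peaks of the 12 closest members. RPLP0 had one at 28.9 kb inside PXN, the paxillin gene (fold 3.36), and RPLP1 had none within 100 kb. Just outside the 100 kb limit lay a shared peak on chromosome 15 whose midpoint was a little further from RPLP1, and one 110 kb from RPS23 on chromosome 5. RPS24 had a replicate 1 peak 199 kb away for which it was the nearest coding gene. Between 28 and 30 kb also lay the shared peaks nearest to RPS16, beside ZFP36, and to RPL27A, inside DENND2B. Among the 418 other coding genes with a body within 100 kb of a member, 9 had a shared peak at a gene end (2.15%), against 2.34% of all autosomal genes. Those 9 stood beside 6 members, among them MED29 and ZFP36 beside RPS16, PPARD beside RPL10A, CD151 beside RPLP2, SULT2B1 beside RPL18 and LAMA5 beside RPS21.

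RPL5 and RPL11, which bind MDM2 when ribosome assembly is disturbed, were 820 and 493 kb from the nearest one. RPL5 had replicate peaks nearer, at 26.8 kb in replicate 1 (fold 3.87) and 46.4 kb in replicate 2 (fold 3.83), both on the lower-coordinate side of the gene. RPS6, the substrate of S6 kinase, was 884 kb from a shared peak, and RPSA, also described as a laminin receptor precursor, 253 kb. Of the other paralogs ending in L, RPL39L was 702 kb, RPL3L 1066 kb, RPL36AL 1775 kb and RPL10L 4743 kb away. In all, 16 members had no shared peak within 1 Mb (20.5%), against 20.2% of all autosomal genes. The 12 members on chromosome 19, the most on 1 chromosome, lay at a median of 179 kb, with RPS16 nearest at 29.1 kb. For 25 members (32.1%) a replicate 1 peak lay at most 0.5 times as far as the nearest shared peak, against 47.7% of the 17907 autosomal genes whose body no shared peak overlapped. For replicate 2 the count was 4 members (5.13%), against 11.1%.

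**Figure D3:**
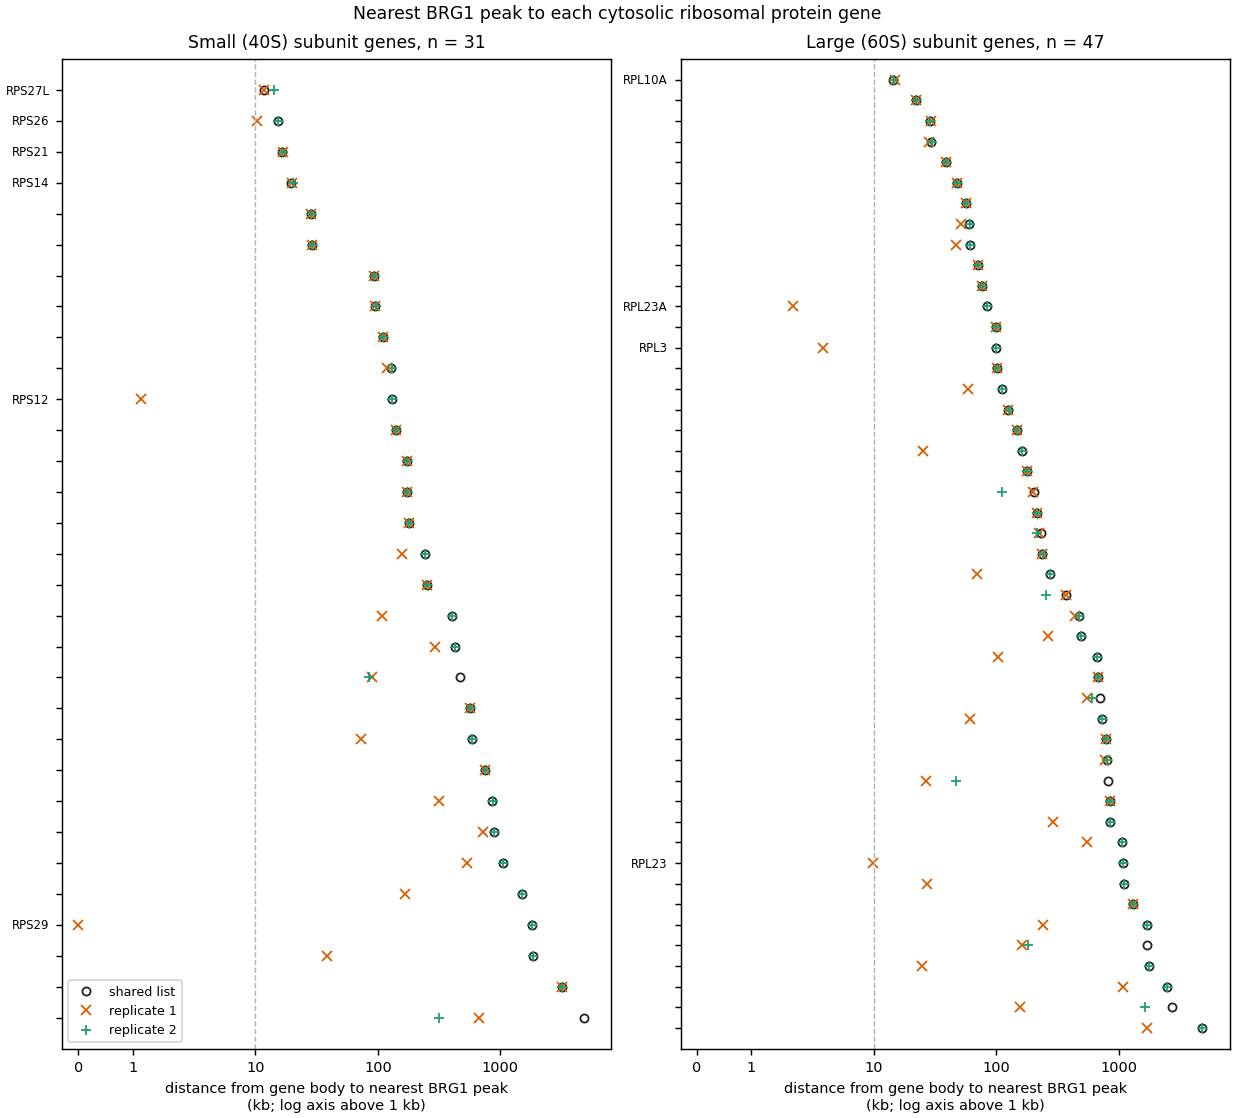
Distance in kb (x axis, log above 1 kb) from the body of each of the 31 small-subunit and 47 large-subunit genes (y axis, ordered by the shared distance; genes with a peak within 20 kb are named) to the nearest BRG1 peak of the shared list (circles), replicate 1 (crosses) and replicate 2 (plus signs); the dashed line marks 10 kb. All circles lie to the right of the line, RPS29, RPS12, RPL23A, RPL3 and RPL23 have a replicate 1 peak at its left, and in 33 of the 78 members all 3 distances lie within 1 kb of the shared one.

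Other genes of protein synthesis and turnover were counted in the same way, beside the 2 of 78 cytosolic ribosomal protein genes (2.56%) with a shared peak by domain and the 10.1% of all autosomal genes. At gene ends the share of all autosomal genes was 2.34%, and the small counts below stand beside it. Mitochondrial ribosomal protein genes, which encode the separate ribosome of mitochondria, had shared peaks in the domains of 3 of 77 (3.90%) and at the ends of 2, MRPS24 (fold 3.77) and MRPL33 (fold 3.53). Translation factors had 3 of 67 in domains (4.48%) and 1 at a gene end, EEF1G (fold 3.14). Proteasome subunits had 2 of 38 in domains (5.26%), PSMD1 and PSMD14, and 0 at gene ends, which allows a share of up to 7.89%. Ribosome biogenesis factors had 4 of 42 in domains (9.52%) and 2 at gene ends, EFL1 (fold 3.46) and NOLC1 (fold 3.32). The median domain was 15.1 kb for cytosolic ribosomal protein genes, 23.3 kb for the mitochondrial set, 46.5 kb for translation factors, 29.2 kb for proteasome subunits and 36.6 kb for biogenesis factors. Differences between these sets were not tested.

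Of 6 ribosomal protein genes or paralogs outside the symbol rule, RPL26L1 had a shared peak at a gene end, at 172953435 to 172956263 on chromosome 5 (fold 3.13, −log10 q 2.97). RPL22L1 had one with its midpoint 62.0 kb away on chromosome 3 (fold 3.84). Collagens and genes with ITGA or ITGB symbols, most of them integrin subunits, served as adhesion and matrix sets. They were chosen as a bound contrast with earlier results of these data known, so a higher share in them is no independent finding. By domain, shared peaks were found for 2 of 78 ribosomal protein genes (2.56%), 10 of 42 collagens (23.8%) and 9 of 29 ITGA and ITGB genes (31.0%). The share of all autosomal genes was 10.1%. The median domain of these sets was 191 kb for collagens and 89.5 kb for ITGA and ITGB genes. Density was 1.19 shared peaks per Mb in ribosomal protein genes, against 1.63 in all autosomal genes. It was 0.983 in translation factors, 1.14 in proteasome subunits, 1.34 in mitochondrial ribosomal proteins, 2.14 in collagens, 2.41 in biogenesis factors and 5.46 in ITGA and ITGB genes. The 6 genes outside the symbol rule had 10.7 per Mb, from 2 peaks in 0.186 Mb. Proteasome subunits also had lower densities than ribosomal protein genes in the replicate lists. Ribosomal protein genes had 3.18 per Mb, against 2.29 in proteasome subunits, for replicate 1, and 1.59, against 1.14, for replicate 2. The proteasome values rest on 4 replicate 1 peaks (Poisson interval 0.624 to 5.86) and 2 replicate 2 peaks (0.139 to 4.13). For shared peaks they were 2 in proteasome subunits (0.139 to 4.13) and 4 in translation factors (0.268 to 2.52). Each interval includes the density of ribosomal protein genes in its list, so these counts do not settle which set is lowest per Mb. At gene ends shared peaks were found for 0 of 78 ribosomal protein genes, 0 of 42 collagens and 2 of 29 ITGA and ITGB genes (6.90%), against 2.34% of all autosomal genes. The 2 were ITGBL1 (fold 4.32), not an integrin subunit, and ITGB2 (fold 3.89). For replicate 1 the counts were 2 of 78 (2.56%), 6 of 42 (14.3%) and 3 of 29 (10.3%), against 7.13% of all.

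**Figure D4:**
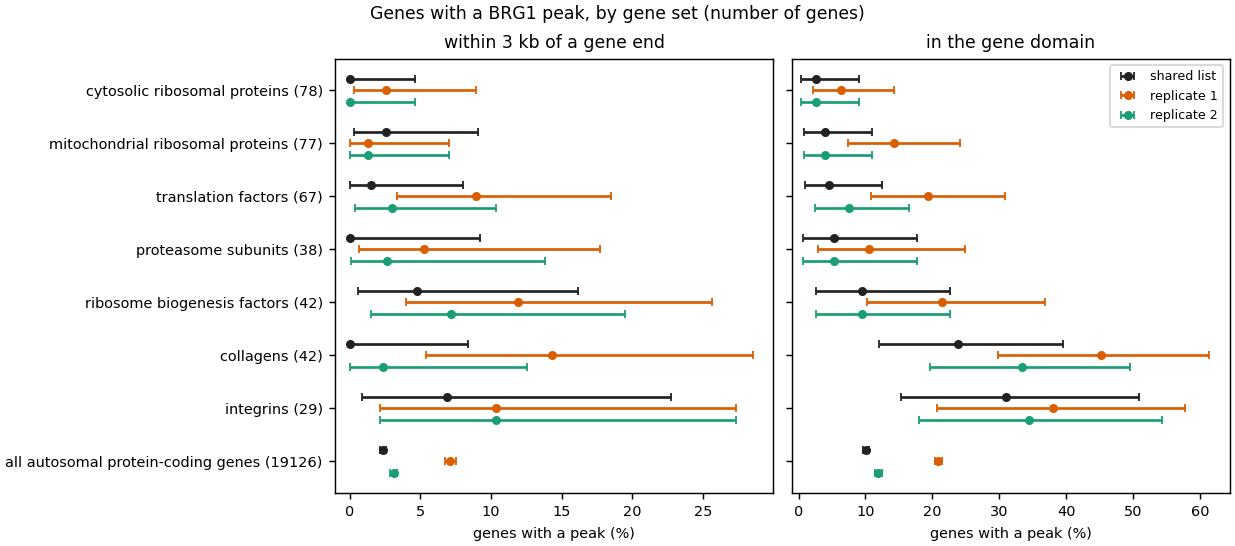
Share of genes (%, x axis) with a peak within 3 kb of a gene end (left) and in the gene domain (right) for each gene set (y axis, number of genes in brackets), by peak list; bars are exact 95% binomial intervals. Cytosolic ribosomal protein genes, with the shortest median domain of these sets, have domain shares of 2.56 to 6.41%, the lowest plotted in each list. Per Mb their values are not the lowest, but the lower ones rest on few peaks, with intervals that include theirs. At gene ends the intervals of cytosolic ribosomal protein genes include the shares of all autosomal genes.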

How the data were processed

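Per the submitters' processing notes the authors used MACS2, Bowtie2, bedtools, Picard, SAMtools, Trim Galore and cutadapt on build GRCh38.p12, with no version or setting given in the sources used here. Cells were fixed with 1% formaldehyde for 10 min, and chromatin was digested with micrococcal nuclease and sonicated for 30 s, per the labels' protocols. The authors' broad peak lists hold a deposited fold, a ratio of signal to background, and a −log10 q value. They are the authors' values and served only to describe and rank peaks within a list. Lists were called per replicate; no source used here says whether reads were pooled for the overlap list. The files hold no read counts, so depth is unknown.

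Genes came from the RefSeq table of GRCh38.p14, used for names and neighbourhoods, and promoters from the RefSeq promoter table, the first listed per gene. Peaks keep the files' positions, counted from 1, on chromosomes 1 to 22. Counts, distances, exact binomial, Poisson and Wilson 95% intervals were computed with scipy 1.17.1, numpy 2.4.6 and pandas 2.3.3 (Python 3.11.15), and plots drawn with matplotlib 3.10.9. A limit for 0 is 3 counts of the total. With 1 condition no test between samples exists, so counts stand beside those of all genes. The counting was tested on simulated data, where 200 of 200 peaks placed at gene ends and 40 of 40 domain lengths were recovered over 20037 genes.

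Members and gene lists were chosen with earlier results of these data known. Genes named are members with a shared peak or a peak in 1 replicate only, the 6 nearest to and 3 farthest from shared peaks, those beside a limit, stalk genes, RPSA, paralogs ending in L, and up to 3 per other list with a shared gene-end peak. Other genes, among them RPL5, RPL11, RPS6, RPL23, RPS16, RPL27A, PSMD1 and PSMD14, were named after their values were seen. Some genes that the rule selects are counted but not reported by name here.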

Additional observations from a re-analysis of the deposited data

How the results depend on the processing

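Of 50 alternative values, 32 stayed within 1.5 times the count reported or, for density and distance, inside its 95% interval. The density interval comes from 3 peaks and is wide (0.246 to 3.49 per Mb), so values from 0.398 to 3.18 stayed inside it. No member had a shared or replicate 2 peak at a gene end with a window of 5 kb, and none had a shared one with either replicate overlap. A window of 1 kb, the midpoint, the transcription start only, a −log10 q of 5 or more and leaving out paralogs also gave 0 there. These settings are narrower than the rule that gave 0, so they could not have given more, though they count among the 32. No paralog ending in L had a peak of any list at its ends or in its domain. Leaving them out could therefore not change any count of members. Leaving out a replicate gave 0 to 2 members at gene ends, 2 to 5 by domain, 1.59 to 3.18 peaks per Mb and a median distance of 114 to 197 kb. For replicate 1 gene ends the count of 2 became 0 within 1 kb, 4 within 5 kb, 1 at the transcription start and 0 at a −log10 q of 5. A reach of 1 Mb gave 4 members by shared, 8 by replicate 1 and 5 by replicate 2 peaks. A −log10 q of 5 in the replicate lists left 262 shared peaks that overlapped such a peak of both replicates. The stricter q gave 0, 1 and 0 members, with 0 shared peaks per Mb and a median of 24857 kb, against 22208 kb in all genes. Replicate overlap by 1 bp or by 50% of both peaks gave 1 member by domain, and the 50% rule a median of 769 kb, against 691 kb in all genes. With that rule, the stricter q and replicate 1 alone (114 kb, against 112 kb), members lay farther from peaks than all genes, not nearer. The transcription-start setting used the 61 members with a listed promoter. No paired analysis was possible because there is 1 condition. Unknown read depth limits any statement on absence of binding.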

Other observations

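The 4 ribosomal protein genes on chromosome X (RPL10, RPL36A, RPL39 and RPS4X) lie outside the counts above. None had a peak of any list at its ends or in its domain. RPL10 had a replicate 2 peak 7.04 kb from its body and a replicate 1 peak at 140 kb, and its nearest shared peak was 12990 kb away. RPL39, RPS4X and RPL36A were 14813, 26419 and 33208 kb from a shared peak.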
